A study of Canis lupus familiaris with 6 samples.

Results

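Cytosolic ribosomal protein genes encode the structural proteins of the large and small ribosomal subunits. They were chosen by their names, RPL or RPS with a number and RPLP0 to RPLP2, which 93 of 43603 noncontrol probes and 50 of 13685 named genes on the array carried. 28 genes belonged to the large subunit and 22 to the small subunit, and names with letters only, such as RPSA and FAU, fell outside the rule. The cells came from 3 established lines of dog mammary tumors. P114 derives from an anaplastic cancer, CMT-U27 from a simple carcinoma and CMT-U309 from a spindle cell tumor. Each was grown in RPMI-1640 with serum, either in monoculture or in co-culture, in which myeloid-derived suppressor cells (MDSCs), obtained by sorting blood of dogs without disease, sat in tissue culture inserts above the tumor cells. The labels give at least 72 h of co-culture, and the methods give a shorter time. Co-culture and monoculture RNA of a line were labelled with different dyes and hybridised together on 2 arrays with the dyes exchanged. Each line therefore counts as 1 sample (n = 3 lines, 6 arrays), and SD is the spread between lines. SE is the moderated standard error of limma, whose variance is drawn towards that of probes of like intensity.

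Ribosomal proteins are made in nearly equal numbers and are assembled with ribosomal RNA in the nucleolus. Most of their mRNAs begin with a terminal oligopyrimidine tract, through which mTOR and its target LARP1 set how many of them are translated, and MYC is known to drive their transcription. Free RPL5, RPL11 and RPL23 bind MDM2 when assembly fails, and tumor cells are known for high ribosome production.

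All 93 probes were well above background in all 12 channels, and no channel of any of them was saturated. 44 of the 50 genes had their brightest probe in the brightest 10% of named genes, so most members are read at the upper end of the signal scale. 24 members had 1 probe and 26 had several, and RPL15 had the most, with 6. No probe was found by name for RPL5, RPL11, RPLP2, RPS6, RPS19 and RPS27, among others. The brightest probe of 7 members, RPL13A, RPL22L1, RPL26, RPL26L1, RPL34, RPS3A and RPS24, is tied in the array annotation to no Ensembl transcript and no curated RefSeq mRNA, and the values of those genes are read from that single stretch of sequence.

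The probes are 60-base oligos, and those of RPL36, RPL37 and RPS27A are shown because RPL36 had the highest mean ratio of the co-culture comparison and RPL37 and RPS27A the lowest after RPS29. Coordinates are those of the canFam2 build in the scanner files, and capitals mark the stop triplet that closes the reading frame running through the bases before it.
RPL36, chr20:57278938-57278997, minus strand: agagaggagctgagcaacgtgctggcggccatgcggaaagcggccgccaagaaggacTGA
RPL37, chr4:71756226-71756276, plus strand: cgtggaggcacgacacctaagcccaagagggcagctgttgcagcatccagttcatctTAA
RPS27A, chr10:59283673-59283732, plus strand: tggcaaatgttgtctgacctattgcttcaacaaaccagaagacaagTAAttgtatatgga

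A frame without a stop ran over 57 bases in the RPL36 and RPL37 probes and over 45 bases in that of RPS27A, so these oligos read the end of a coding sequence. The RPL37 probe is listed with 3 Ensembl transcripts and those of RPL36 and RPS27A with 1 each. Several probes of a gene overlapped and differed at 1 base. The shared stretch of 26 bases of the RPL37 probes and that of 44 bases of the dimmer RPL22L1 probes are shown. Both probes of a pair hold their stretch with 1 differing base, and each also has bases outside it that the other lacks. The ratios of a pair are therefore not read on the same sequence. Capitals mark the differing base, counted from the first base of the stretch, G16A for RPL37 and A33C for RPL22L1.
RPL37 brightest probe: ctgttgcagcatccaGttcatcttaa
RPL37 other probe: ctgttgcagcatccaAttcatcttaa
RPL22L1 first dimmer probe: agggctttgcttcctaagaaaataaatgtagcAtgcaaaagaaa
RPL22L1 second dimmer probe: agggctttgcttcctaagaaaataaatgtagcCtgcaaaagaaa

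To ask whether co-culture with MDSCs altered the mRNAs of the translation machinery, log2 ratios (co-culture over monoculture) were taken at the brightest probe of each gene once the channels had been brought to 1 median. The ratios of ribosomal protein genes lay mostly below 0. The mean over the 3 lines was below 0 for 40 of 50 genes, with a median of -0.14 and a range from -0.43 (RPS29) to 0.34 (RPL36), while 49.7% of all 13174 genes tested were below 0 and their median was 0.00. In limma, 2 genes were lower at an unadjusted p under 0.05 (RPS29 and RPL37) and 0 were higher, where 3.79% of all genes were lower and 5.67% higher. None of the 50 passed an adjusted p of 0.05, at which 0 of all genes passed, and none passed the thresholds of the methods, a more than 2-fold change at an unadjusted p under 0.05, which 0.835% of all genes passed. Both subunits had the same median, -0.14 for the 28 large subunit genes and -0.14 for the 22 small subunit genes.

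This shift was not kept under another normalization. Normexp background correction with loess fits and subtracts a trend of the ratio with brightness within each array. With it the median of the 50 genes was 0.015 and 21 of them were below 0, where 6984 of all 13174 genes were. At an unadjusted p under 0.05 in limma 0 were lower and 5 were higher, against 3.55% of all genes lower and 3.59% higher. A trend was left in CMT-U309, with a median of -0.07 in the brightest 10% of named genes and -0.16 in the 10% next below. The median of all genes was -0.01 in that setting. In the brightest 10% of named genes the median log2 ratio after median scaling was -0.05 in CMT-U27 and -0.02 in CMT-U309. Both were closer to 0 than the medians of the ribosomal protein genes. That 10% spans log2 levels from 12.05 to 17.74 and includes 44 of the members, so it does not match them in brightness. The part of brightness in the ratios of the members was not tested.

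**Figure D1:**
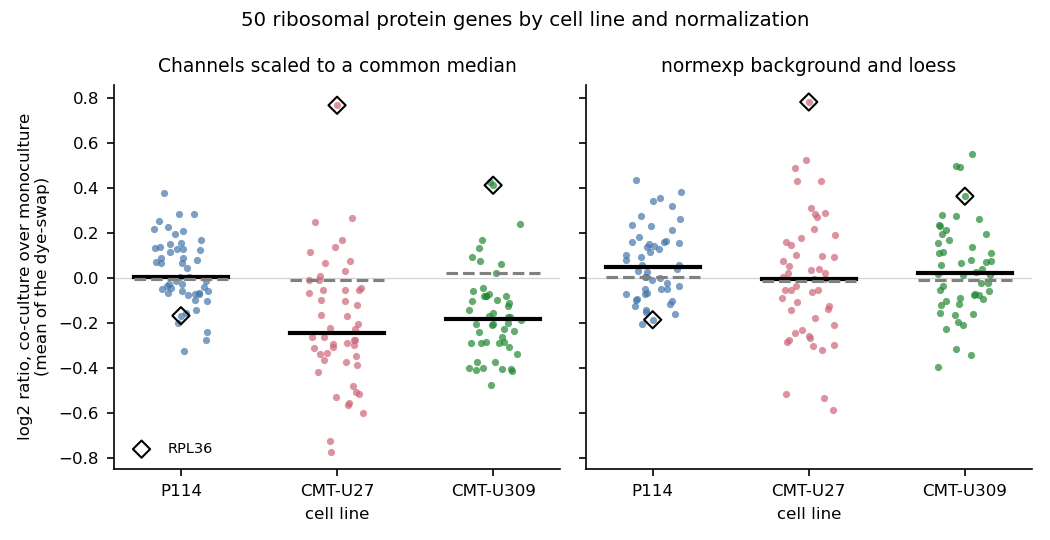
Log2 ratio of co-culture over monoculture (vertical axis) of the 50 ribosomal protein genes in each cell line (points, mean of the 2 arrays), after median scaling (left) and after normexp with loess (right); solid bars are medians of these genes, dashed bars medians of all genes, and diamonds mark RPL36. On the left the medians of CMT-U27 and CMT-U309 are -0.24 and -0.18 against 0.01 in P114, and on the right all 3 lie between -0.003 and 0.05.

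By line, the median was 0.01 for P114 with 24 genes below 0 (50.5% of all genes). For CMT-U27 it was -0.24 with 40 below 0 (50.7%), and for CMT-U309 -0.18 with 41 below 0 (47.7%). Both arrays of CMT-U27 were lower in co-culture for 28 genes (31.7% of all genes) and higher for 6 (33.0%). In CMT-U309 both were lower for 25 genes (23.0% of all genes) and higher for 5 (30.8%). In P114 both were lower for 5 genes (20.2%) and higher for 11 (20.2%). All 4 arrays of CMT-U27 and CMT-U309 were lower for 17 of the 50 genes, against 13.3% of all genes, and higher for 4, RPL36, RPL7L1 and RPL26 among them, against 19.0%. Across the 50 genes the ratios of CMT-U27 and CMT-U309 had a Pearson correlation of 0.71, those of P114 and CMT-U27 of -0.21 and those of P114 and CMT-U309 of -0.38. Genes well above background in all channels gave 0.73, -0.25 and -0.24, so the likeness of both lines was not particular to ribosomal proteins. The points of a line share its arrays and its RNA.

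Medians were also taken array by array. The arrays with Cy5 co-culture RNA gave medians over the 50 genes of 0.00 (P114), -0.20 (CMT-U27) and -0.29 (CMT-U309). Their dye-swaps gave 0.14, -0.21 and -0.09, so the medians of CMT-U27 lay close together and those of the other lines did not. With 1 array per dye orientation in a line, dye and hybridisation cannot be told apart. The 2 arrays of P114 correlated at -0.31 across the 50 genes and at -0.39 across all probes, those of CMT-U309 at -0.08 and -0.09, and those of CMT-U27 at 0.42 and 0.26. Of each dye-swap, the Cy5 co-culture array had the lower ratio in all 3 lines for 20 of the 50 genes, where 24.3% of all genes did. Without P114, the limma fit on 2 lines called 28 of the 50 genes at an unadjusted p under 0.05, 25 of them lower, where it called 34.2% of all genes and 15.8% as lower. At an adjusted p under 0.05 it called 12, 11 of them lower, where it called 16.8% of all genes and 7.04% as lower. Without CMT-U27 it called 0 members at an unadjusted p under 0.05 (2.94% of all genes) and without CMT-U309 1 (3.17%), and no member after adjustment in either.

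**Figure D2:**
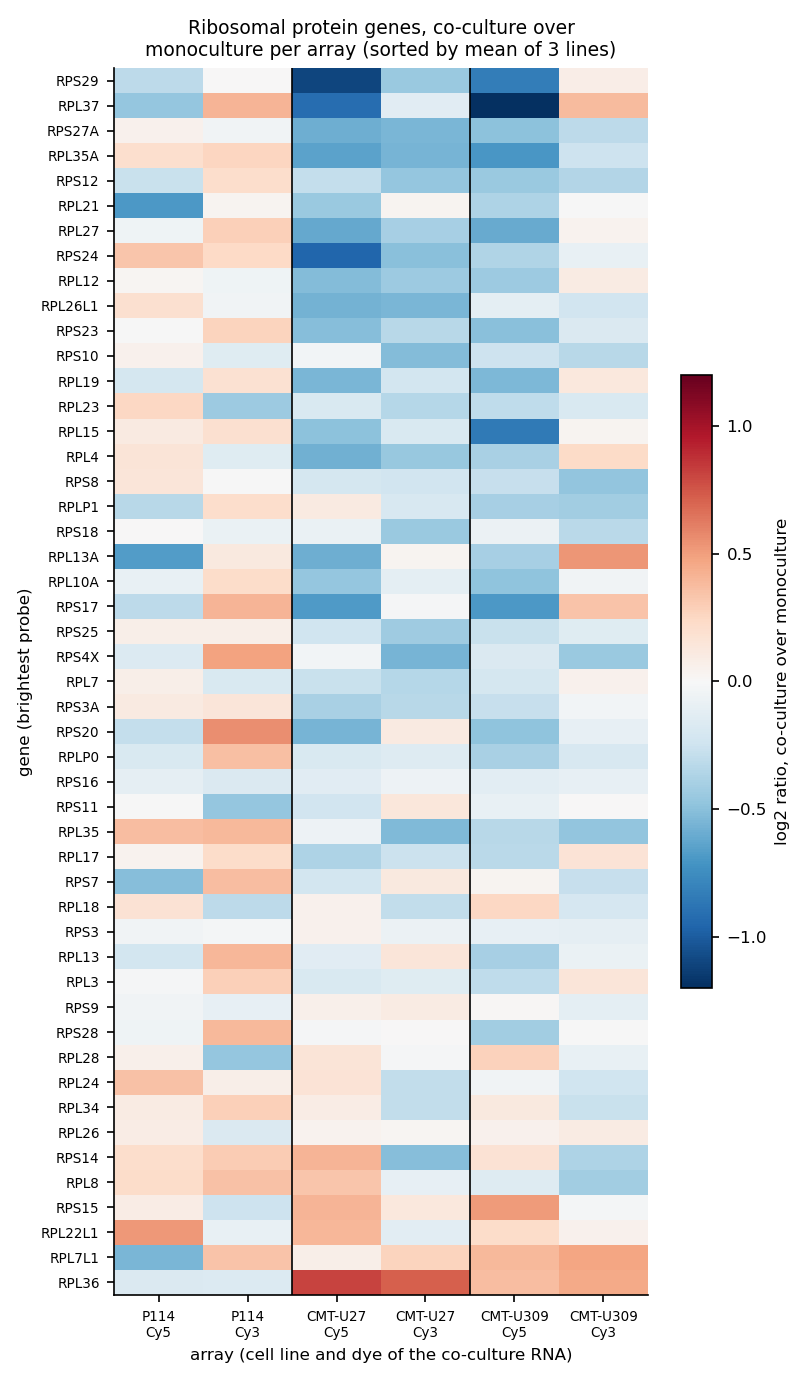
Colour map of log2 ratios (co-culture over monoculture) on each of the 6 arrays (columns, by line and dye of the co-culture RNA) for 49 of the 50 ribosomal protein genes (rows, sorted by the mean of 3 lines), with blue for lower and red for higher in co-culture. Most cells of CMT-U27 and CMT-U309 are blue, and RPL36 in the bottom row is blue in P114 (-0.17 and -0.16) and red on the other 4 arrays (0.37 to 0.82).

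RPL36, a protein of the large subunit, stood apart from the other members. Its log2 ratio was -0.17 and -0.16 on the arrays of P114, 0.82 and 0.72 on those of CMT-U27, and 0.37 and 0.46 on those of CMT-U309. Dye-swapped arrays gave nearly the same value in each line, and P114 did not overlap the others. With normexp and loess the arrays lay farther apart, at -0.36 and -0.01 in P114, 0.96 and 0.61 in CMT-U27, and 0.46 and 0.26 in CMT-U309. The mean was 0.34 (SE 0.16, SD 0.47, n = 3 lines, adjusted p = 0.506 in limma), and it was 0.32 with normexp and loess. In CMT-U27 the signal was 13.54 and 13.67 on the log2 scale in monoculture and 14.36 and 14.39 in co-culture, at the probe shown above. Without P114 the mean was 0.59 with an adjusted p of 0.00386 in limma on 2 lines, a fit that called 16.8% of all genes at an adjusted p under 0.05. RPS29, RPL37, RPS27A, RPL35A, RPS12, RPL26L1 and RPS24 were lower in that fit, with adjusted p-values from 0.00570 (RPL35A) to 0.0387 (RPS24). RPL36, RPS29, RPL37, RPS27A, RPL35A and RPS12 were named for their extreme means in these same data. RPL26L1 and RPS24 are listed here because they passed that fit on the same data. The p-values of all these genes are therefore no independent support for a change.

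RPS29, a zinc-binding protein of the small subunit, had the lowest mean, -0.43 (SE 0.15, SD 0.31, n = 3 lines, adjusted p = 0.498 in limma). Its log2 ratios were -0.32 and 0.00 in P114, -1.10 and -0.44 in CMT-U27, and -0.83 and 0.08 in CMT-U309. The Cy5 co-culture array was the lower one in every line, and with normexp and loess the mean was -0.24.

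RPL37, a large subunit protein with a zinc finger, also had its lower ratio on the Cy5 co-culture array of every line. Where Cy5 held the co-culture RNA, P114 gave a log2 ratio of -0.46, CMT-U27 of -0.92 and CMT-U309 of -1.21, and the dye-swapped arrays gave 0.41, -0.14 and 0.38. Only CMT-U27 had the same sign on both arrays, and the mean was -0.32 (SE 0.14, SD 0.26, adjusted p = 0.498 in limma). Its other probe, which differs at 1 base over the shared stretch, gave -0.24, and with normexp and loess the mean was -0.14.

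RPS27A is made as a fusion with ubiquitin and supplies both a small subunit protein and free ubiquitin. Its arrays agreed more closely, at 0.05 and -0.04 in P114, -0.58 and -0.55 in CMT-U27, and -0.49 and -0.31 in CMT-U309. P114 did not overlap the 2 other lines after median scaling, and the mean was -0.32 (SE 0.15, SD 0.29, adjusted p = 0.498 in limma). With normexp and loess the mean was -0.21. The arrays of CMT-U27 were then at 0.019 and -0.59, so they disagreed in sign and overlapped those of P114 (-0.095 and -0.13).

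RPL35A, a large subunit protein, had log2 ratios of 0.20 and 0.25 in P114, -0.64 and -0.56 in CMT-U27, and -0.70 and -0.25 in CMT-U309. P114 was higher and the other lines lower in co-culture, with a mean of -0.28 (SE 0.17, SD 0.45), or -0.12 with normexp and loess. Its other 2 probes gave -0.06 and 0.00, so the size rested on the brightest probe. RPS12, of the small subunit, completed the lowest genes with -0.27 (SE 0.14, SD 0.21), and its arrays ran from -0.46 to 0.21. With normexp and loess it was at -0.049.

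**Figure D3:**
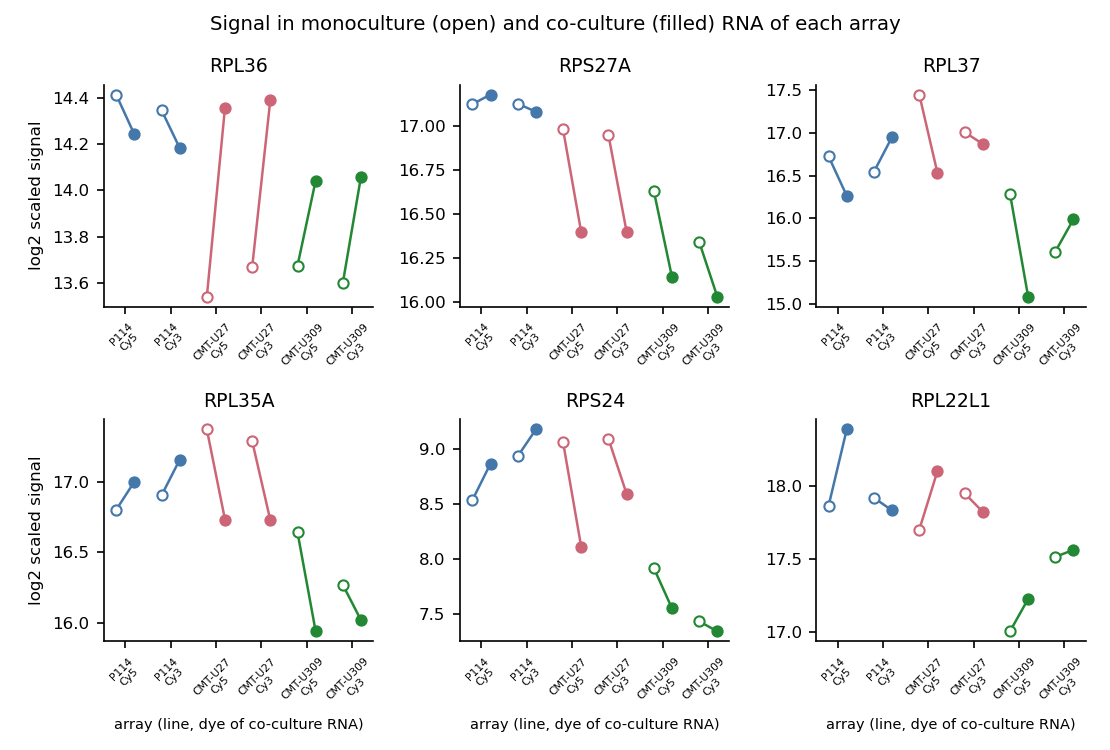
Log2 scaled signal (vertical axis, a separate scale in each panel) in monoculture RNA (open) and co-culture RNA (filled) on each of the 6 arrays (horizontal axis, line and dye of the co-culture RNA) for 6 ribosomal protein genes. Lines for RPL36, RPS27A and RPL35A run the same way on both arrays of CMT-U27 and CMT-U309, while RPL37 runs down with co-culture RNA in Cy5 and up on the dye-swap in P114 and CMT-U309.

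After RPL36 the highest means belonged to RPL7L1 (0.17, SE 0.14), RPL22L1 (0.16, SE 0.13) and RPS15 (0.14, SE 0.13, or 0.33 with normexp and loess). RPL7L1, a paralog of RPL7, ranged from -0.55 in P114 to 0.47 in CMT-U309 and came out at -0.06 with normexp and loess. RPL22L1, a paralog of RPL22, was 0.52 and -0.09 in P114, 0.40 and -0.13 in CMT-U27, and 0.22 and 0.05 in CMT-U309, higher with co-culture RNA in Cy5 in every line. Both of its dimmer probes, at mean levels of 12.36 and 11.27 against 17.74, had the opposite sign, with means of -0.30 and -0.24. These dimmer probes are listed with 1 Ensembl transcript each, and the brightest probe with none. With each other the dimmer probes nearly agreed, at -0.64 and -0.61 in CMT-U27, despite the differing base in their shared stretch. With normexp and loess the brightest probe gave 0.43 (SE 0.09, adjusted p = 0.680 in limma), so both the size and the sign of RPL22L1 hung on the probe and the normalization.

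Genes with a role beyond the ribosome or with a paralog, other than those above, had means between -0.22 and 0.02. The stalk proteins RPLP0 and RPLP1, which recruit elongation factors, had means of -0.12 (SE 0.14) and -0.17 (SE 0.14). RPL23 and RPS7, which bind MDM2, had -0.20 (SE 0.12) and -0.08 (SE 0.13). RPL13A, which also represses translation of inflammatory mRNAs, had -0.16 (SE 0.18), RPS3, which takes part in DNA repair, -0.05 (SE 0.12), and the X-linked RPS4X -0.15 (SE 0.14). RPL3 and RPL7, parents of paralogs, had -0.04 (SE 0.13) and -0.15 (SE 0.12), and RPL26 and its paralog RPL26L1 had 0.02 (SE 0.11) and -0.22 (SE 0.13). With normexp and loess RPLP0, RPLP1, RPS7, RPS3, RPS4X, RPL3 and RPL26 had the opposite sign. Adjusted p-values of all members were 0.498 or more in limma.

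RPS16 was the single member below 0 on all 6 arrays, from -0.18 to -0.06, where 1.97% of all genes were, and it was picked out after its values were seen. Its mean was -0.12 (SE 0.12) with an SD of 0.02 over the lines, and 0.00 with normexp and loess. The SE exceeds the SD here because it is the moderated one of limma. Among the 26 genes with several probes, the means of the probes spread over 0.09 in the median gene, and 3 spread over more than 0.2, namely RPL22L1, RPL35A and RPLP0. In RPLP0 the 3 brighter probes gave -0.12 to -0.19 and the dimmest 0.28.

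Genes that control or accompany ribosome production were taken from lists. Of the ribosomal proteins outside the naming rule 5 of 6 were found, 4 had a mean below 0 and their median was -0.21. RPSA was -0.21 (SE 0.16), FAU -0.24 (SE 0.14) and GNB2L1, the scaffold protein of the small subunit now called RACK1, -0.25 (SE 0.13). With normexp and loess these 3 were at -0.051, -0.11 and -0.014. Other mRNAs of the oligopyrimidine class, for elongation and initiation factors, had a median of 0.00 over 9 of 12 found, and ribosome biogenesis factors -0.01 over 23 of 31. No gene of these 3 lists passed an unadjusted p under 0.05 in limma.

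In the mTOR and MYC list 14 of 15 genes were found, with a median of 0.14, and 3 were higher and 1 lower at an unadjusted p under 0.05 (5.67% and 3.79% of all genes). The higher ones were LARP1, MYC and EIF4EBP1, an inhibitor of translation initiation (0.33, SE 0.15), and the lower one was RICTOR, a subunit of mTOR complex 2 (-0.44, SE 0.17). EIF4EBP1 and RICTOR are named after their values were seen. LARP1, the repressor of ribosomal protein mRNA translation, had log2 ratios of -0.52 and 0.49 in P114, 1.61 and 1.29 in CMT-U27, and 1.21 and 1.04 in CMT-U309. It was higher on all 4 arrays of the latter lines, of opposite sign on the arrays of P114, and its mean was 0.85 (SE 0.23, adjusted p = 0.498 in limma), or 0.50 (SE 0.16) with normexp and loess. MYC was -0.14 and 0.49 in P114, 0.57 and 0.57 in CMT-U27, and 0.65 and 0.67 in CMT-U309, a mean of 0.47 (SE 0.13, adjusted p = 0.498 in limma), or 0.37 (SE 0.13) with normexp and loess. MLST8, a subunit of the mTOR complexes, did not pass, at 0.58 (SE 0.31), or 0.094 with normexp and loess, and was well above background in 8 of 12 channels. Of the sensors of failed assembly, MDM2 had 0.36 (SE 0.13), or 0.21 with normexp and loess, and CDKN1A, an inhibitor of the cell cycle, -0.03 (SE 0.12), both at adjusted p-values of 0.498 or more.

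Markers of myeloid cells were read because RNA of MDSCs could enter the co-culture samples. Of 18 listed, 15 had a probe, 3 were well above background in all 12 channels, and the granulocyte and macrophage genes ITGAM, LYZ, FCGR3A and SPI1 were well above background in none. In CMT-U27 the summed scaled signal of the markers was 13722 and 13774 in the co-culture channels against 7910 and 8202 in monoculture. S100A8, with a mean log2 level of 13.06, was the brightest of them in this line, followed by CD68 at 10.20. The sum in CMT-U27 therefore mostly reads S100A8, which was well above background in all 4 channels, those of monoculture included. S100A8 (0.89 and 0.82) and S100A9 (0.84 and 0.76) had log2 ratios above 0 on both arrays, as did CSF1R, LYZ, ITGB2, FCGR3A, CD68 and SPI1. CYBB, MPO, TYROBP (-1.50 and -1.12) and CSF3R (-0.56 and -1.78) were below 0 on both. In CMT-U27, CSF1R, LYZ, FCGR3A and SPI1 were well above background in no channel, and MPO, TYROBP and CSF3R in 2 of 4. In P114 the sum was 1964 and 1616 against 1674 and 1866, and in CMT-U309 2607 and 2437 against 2227 and 2543. CSF3R, a granulocyte receptor, was the 1 marker at an unadjusted p under 0.05 in limma, with a mean of -0.86 (SE 0.27), or -0.052 with normexp and loess. The part of myeloid RNA in the ribosomal protein ratios was not tested. Luminal epithelium markers were well above background in all 4 channels for 5 of 7 genes in P114, 5 of 7 in CMT-U27 and 4 of 7 in the spindle cell line CMT-U309. The genes differed, with CDH1 counted in CMT-U27 and PGR in P114. KRT19 and EPCAM were at 16.03 and 15.42 in CMT-U27 against 9.67 and 9.18 in P114, while PGR, GATA3 and ERBB2 were higher in P114. Mesenchyme markers were well above background for 6 of 6 genes in P114 and CMT-U309 and 3 of 6 in CMT-U27. ESR1, the estrogen receptor, was well above background in no channel of any line. In bulk RNA, fewer cells of a type and less RNA per cell cannot be told apart.

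The level of each gene was then compared between the lines as the mean of its 4 channels. Every line lay on a slide of its own, so line and slide cannot be told apart, and no test is given. A gene was called where the means differed by over 1 on the log2 scale and the channels of both lines did not overlap. After median scaling most ribosomal protein genes were highest in P114 (34 of 50) or CMT-U27 (16) and lowest in CMT-U309 (47). The median difference of P114 over CMT-U309 was 0.78, of CMT-U27 over CMT-U309 0.67 and of P114 over CMT-U27 0.14, where all genes had 0.08, 0.08 and 0.04. Channels did not overlap for 42 genes higher in P114 than in CMT-U309 (19.1% of all genes), 37 higher in CMT-U27 than in CMT-U309 (29.8%) and 16 higher in P114 than in CMT-U27 (18.8%). In the other direction it was 1 lower in P114 than in CMT-U309 (15%), 0 lower in CMT-U27 than in CMT-U309 (20.3%) and 3 lower in P114 than in CMT-U27 (26.0%). Over 2-fold, 9 genes were higher in P114 than in CMT-U309 (6.57% of all genes) and 7 in CMT-U27 (17.0%), while 0 were higher in P114 than in CMT-U27 (10.2%). Over 2-fold lower were 2 in P114 than in CMT-U27 (14.8%), 1 in P114 than in CMT-U309 (7.42%) and 0 in CMT-U27 than in CMT-U309 (12.7%).

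Most of that order rested on the scaling. With quantile normalization of the channels the median differences were 0.13, 0.14 and -0.01, and with loess and Aquantile normalization they were 0.10, 0.07 and 0.05. CMT-U309 was then lowest for 26 and 25 genes instead of 47. After median scaling the brightest 10% of all named genes was likewise lower in CMT-U309, by 0.31 against P114 and by 0.46 against CMT-U27. Both are less than in the ribosomal protein genes. That 10% also holds genes dimmer than most members, so it does not match them in brightness, and the part of brightness was not tested.

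**Figure D4:**
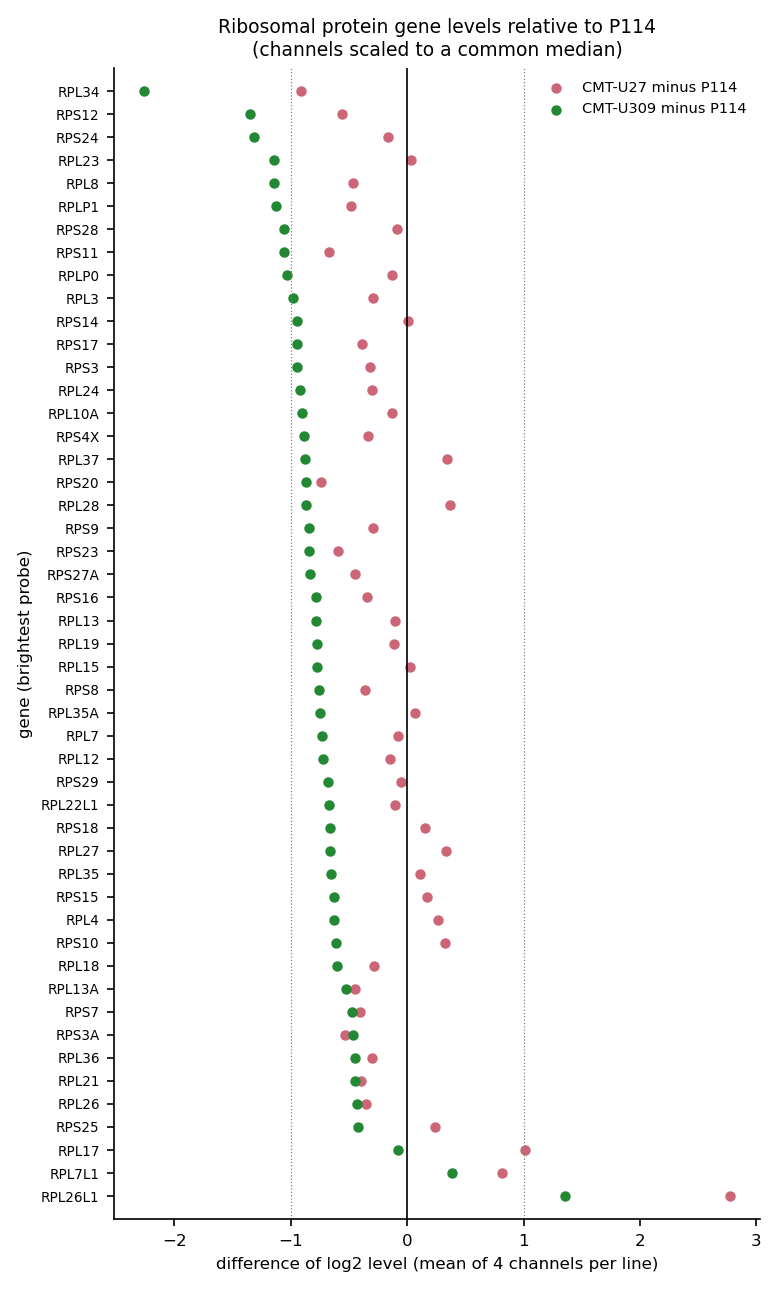
Difference in log2 level (horizontal axis, mean of 4 channels per line after median scaling) of CMT-U27 and of CMT-U309 from P114 for 49 of the 50 ribosomal protein genes (rows, sorted by CMT-U309); dotted lines mark a 2-fold difference. CMT-U309 lies to the left of 0 for all genes drawn but RPL7L1 and RPL26L1, and RPL34 and RPL26L1 lie farthest out.

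RPL26L1, the paralog of RPL26, had the largest difference between lines. It was at 10.37 to 10.60 in P114, 13.01 to 13.60 in CMT-U27 and 11.77 to 12.04 in CMT-U309, and no channels of any lines overlapped. Its level was 6.84-fold higher in CMT-U27 than in P114 and 2.55-fold higher in CMT-U309 than in P114. On the log2 scale P114 minus CMT-U27 was -2.77, and it was -2.59 with quantile normalization and -2.38 with loess and Aquantile. RPL26 itself was highest in P114 (12.87) and lower in CMT-U27 (12.52) and CMT-U309 (12.44).

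RPL34, a large subunit protein, was at 7.97 to 8.37 in P114, at a mean of 7.20 with a highest channel of 7.52 in CMT-U27, and at 5.70 to 5.96 in CMT-U309. Groups did not overlap, and P114 exceeded CMT-U309 by 4.81-fold, or 2.27 on the log2 scale, which was 2.29 with quantile normalization and 1.07 with loess and Aquantile. RPS24, at 8.54 to 9.18 in P114 and 7.35 to 7.92 in CMT-U309, exceeded it by 1.31, by 1.27 and by 0.80 in the same settings. The probes of RPL26L1, RPL34 and RPS24 are among the 7 with no matched transcript.

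RPL17 was highest in CMT-U27, at a mean of 11.23, against 10.22 in P114, whose highest channel was 10.44, and 10.14 in CMT-U309, at 9.87 to 10.33. CMT-U27 overlapped neither of them, and they overlapped each other. CMT-U27 exceeded P114 by 2.02-fold. RPL7L1 lay at 8.08 to 8.63 in P114, 8.96 to 9.43 in CMT-U27 and 8.48 to 8.95 in CMT-U309, so P114 and CMT-U309 overlapped and CMT-U27 stood above them by a small margin. RPS20 was higher in P114 than in CMT-U27, by 1.67-fold without overlap, and did not differ beyond its spread between CMT-U27 (16.50 to 17.06) and CMT-U309 (16.32 to 16.81).

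Among the bright genes RPS12 was 2.55-fold and RPL23 2.21-fold higher in P114 than in CMT-U309, and RPL28 and RPL37 were 2.35-fold and 2.33-fold higher in CMT-U27 than in CMT-U309. With quantile normalization these log2 differences, 1.35, 1.15, 1.23 and 1.22, became 0.62, 0.50, 0.82 and 0.72.

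**Figure D5:**
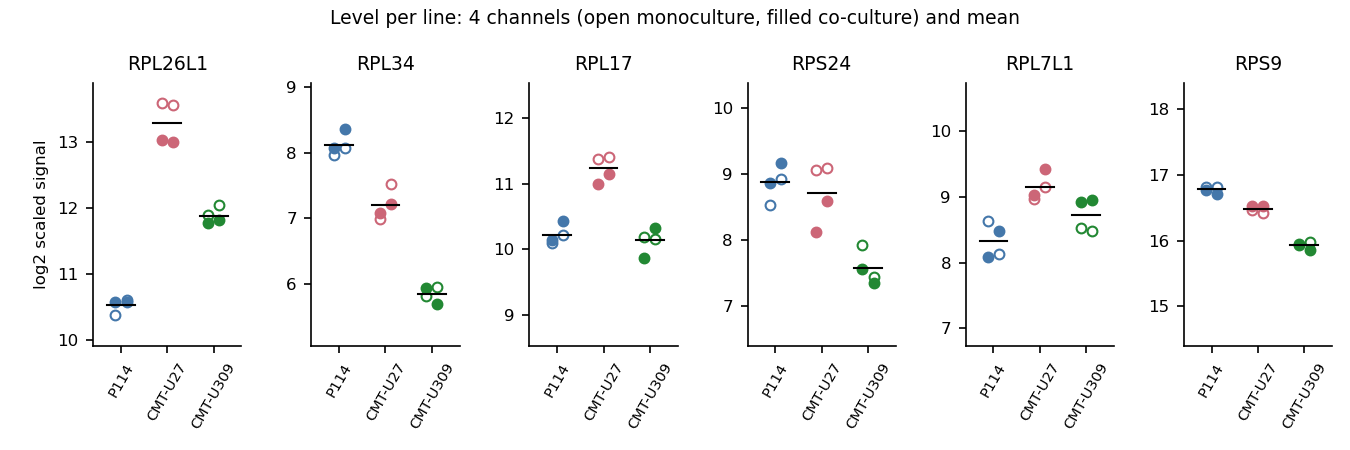
Log2 scaled signal (vertical axis, each panel spanning 4 units) of 6 ribosomal protein genes in the 4 channels of each line (open monoculture, filled co-culture), with the mean as a bar. RPL26L1 is lowest in P114 and highest in CMT-U27, RPL34 and RPS24 are lowest in CMT-U309, and RPS9 shows the small ordered steps common to most members (16.78, 16.48 and 15.93).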

How the data were processed

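RNA of co-cultured and monocultured cells was measured on 6 Agilent canine 4x44K arrays. The authors deposited scanner output with processed red and green intensity values, made with Feature Extraction (10.10.1.1 in the file headers, 10.7.3.1 in the submitters' processing notes) with background subtraction and dye normalization, and a table of log10 ratios, which equals the scanner ratio turned to co-culture over monoculture. Direction follows the dyes in the labels. No other value column was left unmapped (0).

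Here all channels were brought to the same median, control spots and outlier spots were left out, spots of a probe were averaged as log2 values, and probes that never exceeded an intensity of 10, or that lacked a ratio on any of the 6 arrays, were dropped, leaving 40699 probes. The dye-swap of a line was averaged to 1 value, since no source names separate cultures, and the mean of 3 lines was tested against 0 with limma (3.58.1, R 4.3.3; lmFit and eBayes with trend) and Benjamini-Hochberg adjustment over all probes. The number of arrays limits the precision. The fit was tested on simulated data. A gene is its brightest probe.

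Members, lists and tests were chosen with earlier results of these data known. The genes named are those with a known role or paralog, the 5 highest and 5 lowest mean ratios, genes past the thresholds of the methods, up to 5 per pair of lines with the largest level difference without overlap, and up to 3 of each other list. Alternatives were normexp (offset 50) with loess, the deposited ratios, no scaling, centring on bright probes, other filters and gene summaries, the methods' t-test, eBayes without trend, the 6 arrays with and without a replicate block, other scalings of levels, and leaving out each line and each array. Single values of some genes are not reported here.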

Additional observations from a re-analysis of the deposited data

Results flagged for a closer look

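Among the named members, in RPL35A, RPL36, RPL17 and RPS24, both arrays of P114 ran one way and both arrays of another line the opposite way. The difference between the lines was not tested, since each line is 1 sample. RPL36 was lower in co-culture in P114 and higher in the other lines, with log2 ratios that differed by -0.94 from CMT-U27 and by -0.58 from CMT-U309 (P114 minus the other line). RPL35A was higher in P114 and lower in the other lines, with differences of 0.83 and 0.70. For RPS24 the differences were 1.01 and 0.52, and for RPL17 it was 0.44 against CMT-U27. Among all 50 members, 9 ran opposite ways in P114 and CMT-U27, against 16.1% of all genes, 8 in P114 and CMT-U309, against 13.7%, and 0 in CMT-U27 and CMT-U309, against 6.13%.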

How the results depend on the processing

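The ratio of the ribosomal protein genes depended on the normalization. With normexp and loess their median was 0.015 and 21 were below 0, where 6984 of all 13174 genes were. By line the median was -0.0029 in CMT-U27 (26 below 0) and 0.023 in CMT-U309 (22 below 0). The number of members at an unadjusted p under 0.05 in limma was 2 in the report (9.46% of all genes) and 5 with normexp and loess (7.14%). It was 1 on the deposited log10 ratios and 5 when only probes well above background were fitted. With eBayes without trend it was 0, and on the 6 arrays with the replicate block it was 6. Shares of all genes are not given for these other settings, so their counts cannot be set against a background. Array numbers mark the dye of the co-culture RNA, and over all probes the ratios of arrays of the same number correlated between lines at -0.22, 0.033 and 0.40 for number 1 and at 0.47, 0.51 and 0.61 for number 2. When a line or an array was left out, the number of members at an unadjusted p under 0.05 ran from 0 to 28. That at an adjusted p under 0.05 ran from 0 to 12. Both were highest without P114, where limma called 34.2% and 16.8% of all genes. The median ran from -0.23 to -0.071 with 37 to 44 genes below 0. By line, the median ran from 0.00026 to 0.14 in P114, -0.24 to -0.20 in CMT-U27 and -0.29 to -0.089 in CMT-U309, with 19 to 25, 35 to 40 and 32 to 41 genes below 0. In the lists of ribosome production, its control and its sensors, 5 genes had an unadjusted p under 0.05 in the report, 3 with normexp and loess, 2 with the methods' t-test, 2 with eBayes without trend, 10 with and 9 with no replicate block, and 1 to 21 when a line or an array was left out. Where no share of all genes is given above, these counts cannot be set against a background.

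Level differences depended on the scaling too. With quantile normalization the median was 0.13 for P114 minus CMT-U309 and 0.14 for CMT-U27 minus CMT-U309, and with loess and Aquantile 0.10 and 0.071. Without an array the medians ran from 0.74 to 0.83 and 0.59 to 0.75, and from 0.12 to 0.24 for P114 minus CMT-U27. Genes over 2-fold higher in P114 than in CMT-U309 numbered 2 with quantile normalization, 1 with loess and Aquantile, 5 when centred on probes well above background, 21 in the co-culture channels and 8 to 14 without an array. Those higher in CMT-U27 than in CMT-U309 numbered 2, 1 and 3 in the first 3 of these settings and 6 to 12 without an array. Those higher in P114 than in CMT-U27 numbered 1 when centred, 1 in the co-culture channels, 1 by the median over probes and 0 to 1 without an array. Those lower in P114 than in CMT-U27 numbered 1, 1, 1 and 1 in the same settings as first listed, and 1 to 2 without an array. Shares of all genes in these settings are not given, so the counts cannot be set against a background.

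Some named genes changed sign, none at an adjusted p under 0.05 in limma. With normexp and loess the log2 ratio was 0.043 for RPLP0, 0.050 for RPLP1, 0.22 for RPS7, 0.094 for RPS3, 0.031 for RPS4X, -0.062 for RPL7L1, 0.16 for RPL3, -0.042 for RPL26, 0.10 for RPS20 and 0.10 for RPL28. RPL26 was -0.0024 on the deposited ratios, -0.0024 unscaled and -0.0065 when centred on probes well above background, and RPL34 was -0.017, -0.017 and -0.022. By the median over probes RPL22L1 was -0.24 and RPL28 0.030. When a line or an array was left out, RPL3 ran from -0.12 to 0.038, RPL17 ran from -0.20 to 0.025, RPL26 ran from -0.022 to 0.065, RPL28 ran from -0.10 to 0.081, RPL34 ran from -0.087 to 0.071, RPS7 ran from -0.23 to 0.062, RPS20 ran from -0.27 to 0.013 and RPS24 from -0.48 to 0.029. The cause was not tested.

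With 3 lines, the number of arrays limits the precision, and slide and line cannot be told apart.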

Other observations

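The brightest probes of the 50 ribosomal protein genes had a median GC content of 41.7%, and 11 of them were listed with more than 1 Ensembl transcript. The median GC content of the brightest probes of all genes tested was 45%.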
